A study of Mus musculus with 18 samples.

Results

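The expression of 10 genes of the machinery that starts a cell division was followed through 17-DMAG selection and 17-DMAG exposure of 4T1 cells, chosen by their symbols among the genes of the count table. They were the transcription factor gene Myc and its antagonist Mxd1, the D-type cyclins Ccnd1, Ccnd2 and Ccnd3, the E-type cyclins Ccne1 and Ccne2, and the inhibitors of cyclin-dependent kinases (CDKs) Cdkn1a, Cdkn1b and Cdkn2b. All 10 were among the 24421 gene symbols listed. Of these 10, 9 passed the filter on low counts with 13507 genes in all, and Cdkn2b did not.

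The parental line, 4T1, comes from a mouse mammary carcinoma, with BALB/cfC3H given as strain and wild type as genotype. It was studied beside 4T1R1 and 4T1R2, populations obtained separately from 4T1 by repeated exposure to 17-DMAG and regrowth of the survivors. 17-DMAG inhibits the chaperone HSP90. The labels describe populations rather than single clones. Each was sequenced untreated and after 17-DMAG, giving 6 groups of 3 libraries that shared medium and serum, and the series calls the 3 libraries biological replicates. The dose was 1.5 µM. The sample labels give 48 h of exposure, the series description and the study give 2 h, and the data were not used to settle which applies.

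Total counts per library ran from 23354461 to 55094630, and a count is a read assigned to a gene. In treated 4T1, replicates 1 and 2 were closer to each other than any other pair within a group (chi-square per gene 1.099, against 2.04 to 2.22 in 17 other pairs within groups). They were therefore not taken as separate libraries but averaged and counted as 1 sample. This left n = 2 for 17-DMAG-treated 4T1, n = 3 elsewhere and 17 samples in all. The column names of the 4T1R1 libraries, treated and untreated, carry the number 0366 and those of the other populations 0362. What these numbers stand for was not established. Differences in level between 4T1R1 and the other populations cannot be told apart from whatever the numbers mark. The 6 epithelial marker genes summed to between 1701 and 2506 CPM (counts scaled to a common library total) in every library, while 5 immune markers summed to at most 1.67 and 4 endothelial markers to at most 0.581. The 4 fibroblast markers summed to between 11.2 and 33.8, nearly all of it Pdgfra, at 10.8 to 33.5. The others were low, with Col1a2 at most at 0.633, Dcn at most at 0.0628 and Lum at 0 throughout.

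As background, mitogens induce D-type cyclins, which bind CDK4 and CDK6, while E-type cyclins bind CDK2 later in G1. Both kinase complexes phosphorylate RB, which then releases E2F factors that drive genes of DNA synthesis. The CIP/KIP proteins p21 (Cdkn1a) and p27 (Cdkn1b) restrain CDK2 complexes, p15 (Cdkn2b) restrains CDK4 and CDK6, and MYC with its partner MAX drives genes of ribosome production and growth, a site of action for which MXD1 with MAX competes. Many upstream kinases of this circuit are clients of HSP90.

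In parental 4T1, 17-DMAG moved these genes in both directions. Myc, Ccnd2, Ccnd3 and Mxd1 rose, by 0.50, 0.51, 0.23 and 0.60 on the log2 scale. Cdkn1a, Ccne1, Cdkn1b and Ccnd1 fell, by 1.03, 0.62, 0.45 and 0.17. That is 8 of the 9 members tested, against 36.4% of all genes tested, under edgeR's quasi-likelihood test with Benjamini-Hochberg adjustment over all genes and a threshold of 0.05. The 2 groups of samples did not overlap in 9 members, against 56.5% of all genes. In 4T1R1 the same test called 7 members, 4 higher and 3 lower, against 28.2% of all genes, and groups did not overlap in 6 members against 39% of all genes. In 4T1R2 it called 4 members, 3 higher and 1 lower, against 10.5% of all genes, and groups did not overlap in 5 members against 26.5%. In 4T1R1, 7 members responded differently than in 4T1 (4 with a higher and 3 with a lower response), against 18.2% of all genes, of which 9.16% higher and 9.08% lower, and in 4T1R2 7 responded differently than in 4T1 (again 4 higher and 3 lower), against 17.8%, of which 9.62% higher and 8.16% lower. These are the same 7 genes, Myc, Mxd1, Ccnd1, Ccnd2, Ccne1, Cdkn1a and Cdkn1b, and both differences use the 4T1 samples. No member passed for a difference in response between 4T1R2 and 4T1R1, against 2.13% of all genes, of which 0.918% lower. There 1 of 9 members had an unadjusted p under 0.05, and DESeq2 called 1, in both cases Myc with a lower response. Members and gene lists were chosen with earlier results of these data known. Their shares beside those of all genes are therefore descriptions and no test of the set.

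Without drug, 6 members differed between 4T1R1 and 4T1, against 52.7% of all genes, and 6 did not overlap, against 56.5% of all genes. Between 4T1R2 and 4T1, 5 differed against 52.4%, and 4 did not overlap against 57.2%. Between 4T1R2 and 4T1R1, 6 differed against 38.8%, and 5 did not overlap against 46.1%. The shares of members called in the 2 comparisons with 4T1 are near those of all genes. Of the 6 epithelial markers, 5 were lower in 4T1R1 and 4 were lower and 1 higher in 4T1R2 than in 4T1 (median log2 change -0.63 and -0.41), and their part in these results was not tested. In bulk RNA a change in the share of cells that express a gene and a change of RNA per cell cannot be told apart. Leaving out 1 library moved 3 of the counts of members called by over 1.5 times. The count of 6 for 4T1R1 against 4T1 became 3 without untreated 4T1R1 replicate 1 or untreated 4T1 replicate 3, and the count of 7 for 17-DMAG in 4T1R1 became 3 without treated 4T1R1 replicate 2 and 4 without treated 4T1R1 replicate 3 or untreated 4T1R1 replicate 1. The count of 0 for the response of 4T1R2 minus 4T1R1 became 1 without untreated 4T1R1 replicate 2, treated 4T1R1 replicate 1 or untreated 4T1 replicate 1.

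**Figure D1:**
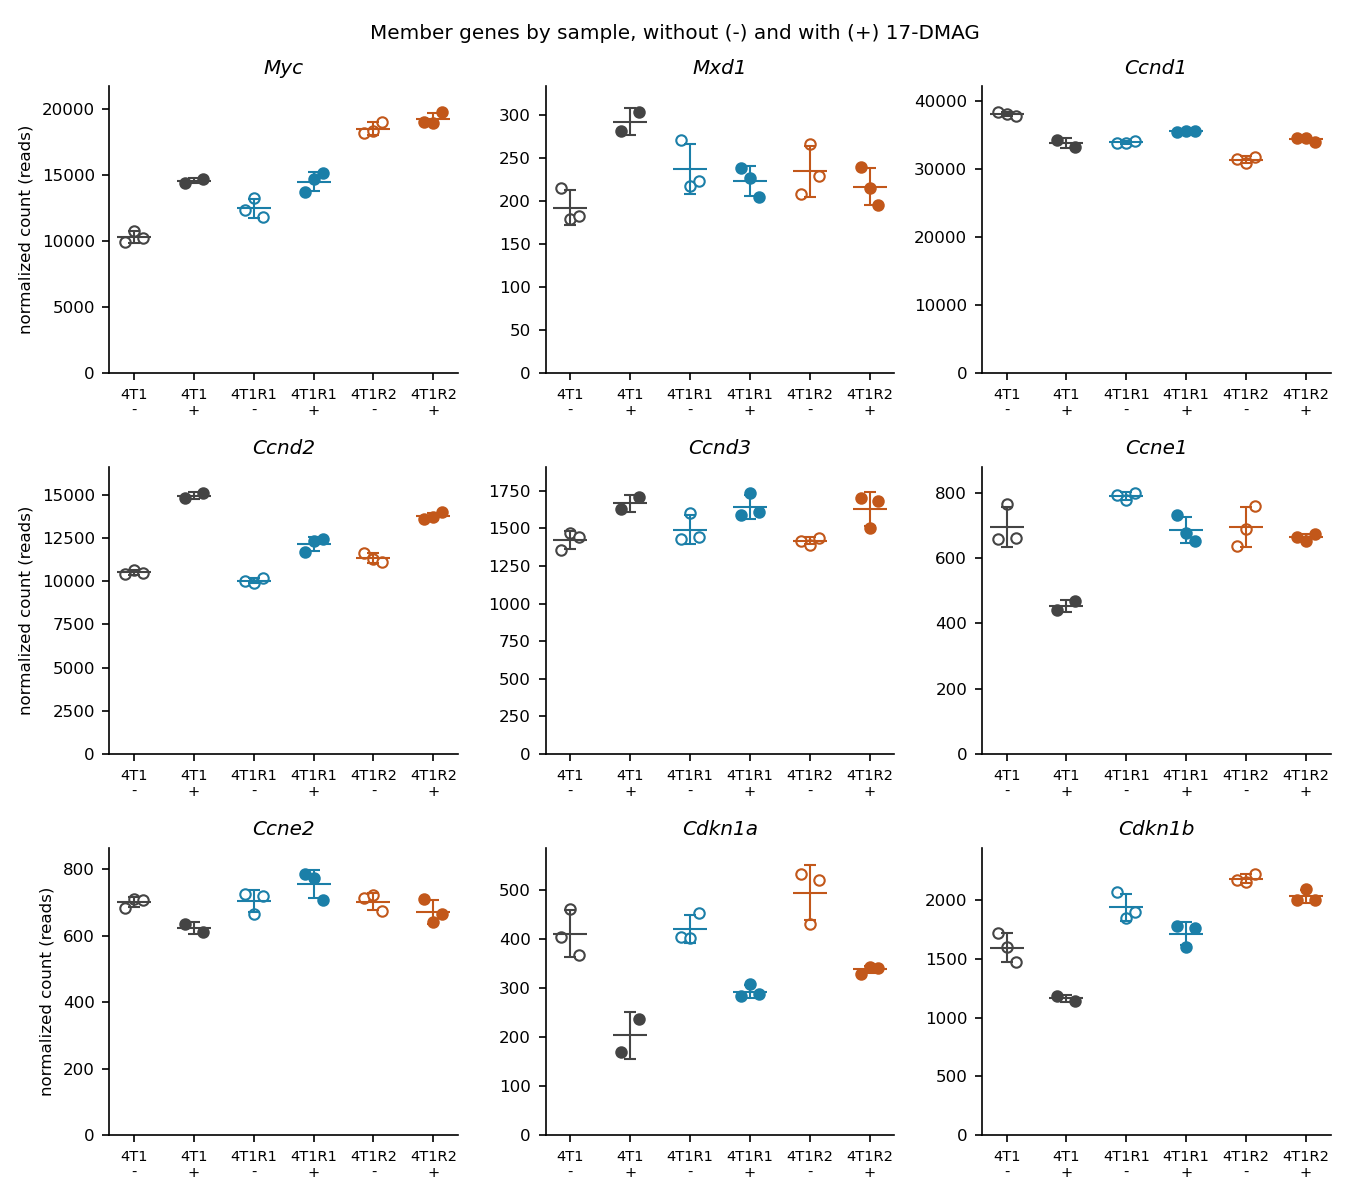
Normalized counts (reads, linear axes from 0) of the 9 members that passed the filter, 1 point per sample, in untreated (open, -) and 17-DMAG-treated (filled, +) cells, with bars for the mean ± SD. Myc sits between 9923 and 10793 in untreated 4T1 and at 18207 or more in all 6 samples of 4T1R2, and Cdkn1a is lower after the drug in each population.

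Myc (chr15:61985391-61990374 of GRCm38, plus strand) was the member that differed most between 4T1R2 and 4T1. Normalized counts are given throughout, each count being scaled to the mean library size after TMM correction. Untreated 4T1 held 9923, 10793 and 10275, untreated 4T1R1 held 12405, 13247 and 11832, and untreated 4T1R2 held 18207, 18372 and 19086. The 3 populations did not overlap. Myc was 1.21-fold higher in 4T1R1 than in 4T1 (log2 0.27, SE 0.0349, adjusted p = 1.15e-08) and 1.80-fold higher in 4T1R2 (log2 0.84, SE 0.0349, adjusted p = 3.78e-23). It was also 1.49-fold higher in 4T1R2 than in 4T1R1 (log2 0.57, SE 0.0346, adjusted p = 5.11e-17). These 3 differences passed under every alternative run other than the minimum change of 0.5 (log2), under which the first was lost.

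The drug raised Myc most where its untreated level was lowest. In 4T1 the samples after 17-DMAG held 14452 and 14733, above all 3 untreated samples (log2 change 0.50, SE 0.0385, adjusted p = 4.36e-14). In 4T1R1 they held 13704, 14711 and 15143, again above the untreated samples (log2 change 0.22, SE 0.0346, adjusted p = 5.43e-06). In 4T1R2 they held 19047, 18958 and 19800.3, which overlapped the untreated samples (log2 change 0.05, 95% interval -0.01 to 0.12, adjusted p = 0.358). The response was smaller in 4T1R1 than in 4T1 by 0.28 (log2, SE 0.0519, adjusted p = 8.48e-05) and smaller in 4T1R2 than in 4T1 by 0.44 (log2, SE 0.0516, adjusted p = 9.16e-09). Scaling by total counts alone ended the first of these calls (log2 -0.13, adjusted p = 0.0518). The response of 4T1R2 minus that of 4T1R1 was -0.16 (log2, adjusted p = 0.0686), and it passed under DESeq2 (adjusted p = 0.0391), under total counts alone (adjusted p = 0.00187) and without any of untreated 4T1R1 replicate 2 (adjusted p = 0.00508), treated 4T1R1 replicate 1 (adjusted p = 0.0214) and untreated 4T1 replicate 1 (adjusted p = 0.0496).

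Ordered by mean level, Myc was lowest in untreated 4T1 at 10330.1 ± 438 (SD, n = 3) and next in untreated 4T1R1 at 12494 ± 712 (SD, n = 3). Treated 4T1R1 at 14519.5 ± 738 (SD, n = 3) and treated 4T1 at 14592 ± 199 (SD, n = 2) followed, and the range of the first enclosed that of the second. Untreated 4T1R2 at 18555 ± 467 and treated 4T1R2 at 19268 ± 463 (SD, n = 3 each) were highest, and their ranges overlapped. Per kilobase of exon, Myc reached 4418 ± 187 in untreated 4T1 (SD, n = 3), below Ccnd1 at 10167 ± 69.0 (SD, n = 3) and above the 7 other members tested.

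Mxd1 (chr6:86647042-86669161, minus strand), which encodes a repressor that pairs with MAX and so opposes MYC, had the lowest level per kilobase of exon of the 9 in every group, between 41.2 and 62.7. Untreated 4T1 held 215, 179.5 and 182 normalized counts, and 17-DMAG took it to 281 and 304, above all 3 (log2 change 0.60, SE 0.129, adjusted p = 0.000227). In 4T1R1 the untreated samples held 271, 218 and 223 and the treated ones 239, 226 and 205 (log2 change -0.09, adjusted p = 0.651). In 4T1R2 the untreated samples held 208, 266 and 229 and the treated ones 239, 215 and 196 (log2 change -0.11, adjusted p = 0.654). Groups overlapped in both selected populations. The response differed from that of 4T1 by -0.69 in 4T1R1 (log2, SE 0.175, adjusted p = 0.00385) and by -0.71 in 4T1R2 (log2, SE 0.176, adjusted p = 0.00303), and both held under each library left out. Untreated levels differed less firmly. Mxd1 was 0.30 higher in 4T1R1 than in 4T1 (log2, SE 0.120, adjusted p = 0.0317), which DESeq2 did not call (adjusted p = 0.0595), and which was lost without untreated 4T1R1 replicate 1 (log2 0.20, adjusted p = 0.223), untreated 4T1 replicate 2 (0.26, adjusted p = 0.112) or untreated 4T1 replicate 3 (0.26, adjusted p = 0.108). Its difference of 0.28 in 4T1R2 missed the threshold (adjusted p = 0.0551) and passed without untreated 4T1 replicate 1 (log2 0.36, adjusted p = 0.0244), untreated 4T1R2 replicate 1 (0.36, adjusted p = 0.0247) or untreated 4T1R1 replicate 1 (0.28, adjusted p = 0.0496).

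**Figure D2:**
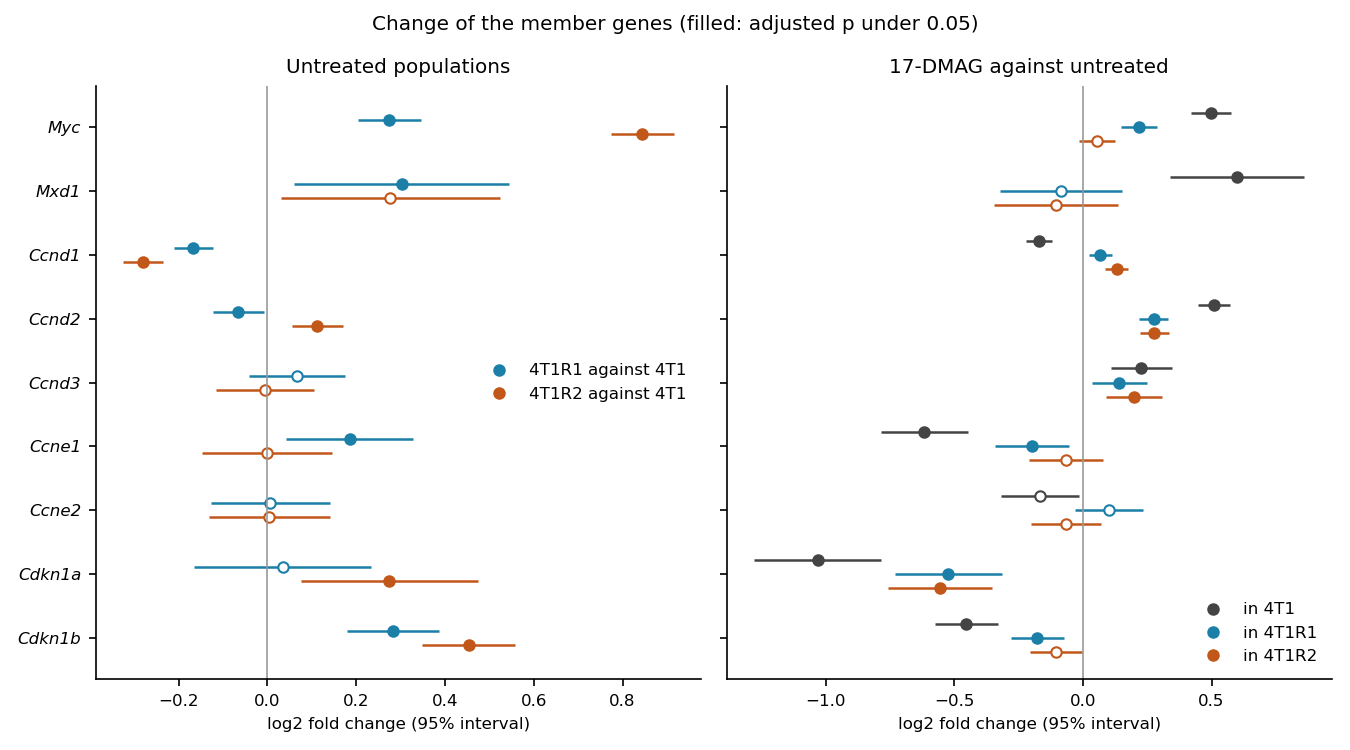
Log2 fold changes with 95% intervals of the 9 members for the untreated selected populations against 4T1 (left) and for 17-DMAG against untreated in each population (right), filled where the adjusted p was under 0.05. Ccnd1 lies at -0.17 in 4T1 and at 0.07 and 0.13 in the selected populations after the drug, while Ccnd2 and Ccnd3 are above 0 in each.

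Of 12 other genes of the MYC network, 10 were tested. Compared with 4T1, 3 rose and 2 fell in 4T1R1 and 5 rose and 3 fell in 4T1R2. These are 5 and 8 of 10, where 52.7% and 52.4% of all genes were called, so the count in 4T1R1 is near that of all genes. Mycl, a MYC paralogue, changed most, from 38.3 ± 0.88 normalized counts in untreated 4T1 to 99.9 ± 3.86 for 4T1R1 and 137 ± 29.6 for 4T1R2 (SD, each n = 3). The log2 changes were 1.39 (SE 0.206, adjusted p = 3.11e-07) and 1.85 (SE 0.202, adjusted p = 2.83e-10). The next 3 genes were picked out after their values were seen. Mnt, whose product represses with MAX as MXD1 does, rose in both selected populations (log2 0.40, adjusted p = 2.69e-06, and log2 0.66, adjusted p = 4.94e-11). Mxi1, of the same family as Mxd1, rose in 4T1R2 (log2 0.43, adjusted p = 1.88e-06) and was at 0.10 in 4T1R1 (adjusted p = 0.271). Max, the shared partner, rose in 4T1R2 (log2 0.26, adjusted p = 5.69e-06) and was at 0.02 in 4T1R1 (adjusted p = 0.700). After 17-DMAG, 1 gene of the network rose and 2 fell in 4T1, 1 rose and 3 fell in 4T1R1, and 1 fell in 4T1R2, against 36.4%, 28.2% and 10.5% of all genes called, which these counts of 10 lie near. The count in 4T1R2 became 0 without untreated 4T1R2 replicate 1 or 2 or treated 4T1R2 replicate 2, 3 without untreated 4T1R1 replicate 2, and 2 without untreated 4T1R1 replicate 1 or 3, treated 4T1R1 replicate 2, untreated 4T1 replicate 1 or 2 or untreated 4T1R2 replicate 3. Mxd3, like Mxd1 a repressor that binds MAX and picked out in the same way, fell in each population (log2 -0.59, -0.32 and -0.41, adjusted p = 0.000293, 0.0272 and 0.0154), whereas Mxd1 rose in 4T1.

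MYC target genes were taken as a list of 54 genes, mostly of ribosome assembly and nucleotide synthesis, and all 54 were tested. In untreated 4T1R1, 39 were lower and 5 higher than in 4T1, with a median log2 change of -0.19 against 0.01 over all genes, while Myc itself was higher. In untreated 4T1R2, 22 were lower and 15 higher, with a median of -0.02 against 0.01 over all genes. In 4T1R2 against 4T1R1, 31 were higher and 1 lower, with a median of 0.14 against -0.01 over all genes. The shares of all genes called higher and lower in these comparisons were 25.2% and 27.5%, 25.6% and 26.9%, and 19.7% and 19%. Hk2, hexokinase 2, was higher in both selected populations (log2 0.55, adjusted p = 2.59e-18, and log2 0.80, adjusted p = 1.04e-23), and Nop56, a factor of ribosomal RNA modification, was lower in both (log2 -0.33, adjusted p = 1.21e-13, and log2 -0.31, adjusted p = 1.32e-12). Both genes were named after their values were seen. The 5 that were higher in 4T1R1 became 3 without untreated 4T1R1 replicate 2.

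After 17-DMAG, 25 of the 54 MYC target genes rose and 3 fell in 4T1, 16 rose and 7 fell in 4T1R1, and 18 rose and 1 fell in 4T1R2. The shares of all genes called higher and lower were 18.4% and 17.9%, 13.9% and 14.3%, and 6.18% and 4.35%. The direction in 4T1 depended on the scaling, since total counts alone shifted the median of the listed genes by -0.116 (log2) and gave 15 higher and 18 lower there, 20 and 3 in 4T1R1, and 6 and 3 in 4T1R2. The 3 that fell in 4T1, named after their values were seen, were Mcm4 and Mcm5, subunits of the helicase that unwinds DNA at replication origins (log2 -0.38, adjusted p = 2.47e-13, and log2 -0.34, adjusted p = 1.44e-10), and Ldha (log2 -0.09, adjusted p = 0.00497). The 19 calls in 4T1R2 became 11 without untreated 4T1R2 replicate 2, and the 7 that fell in 4T1R1 became 4 without treated 4T1R1 replicate 3.

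**Figure D3:**
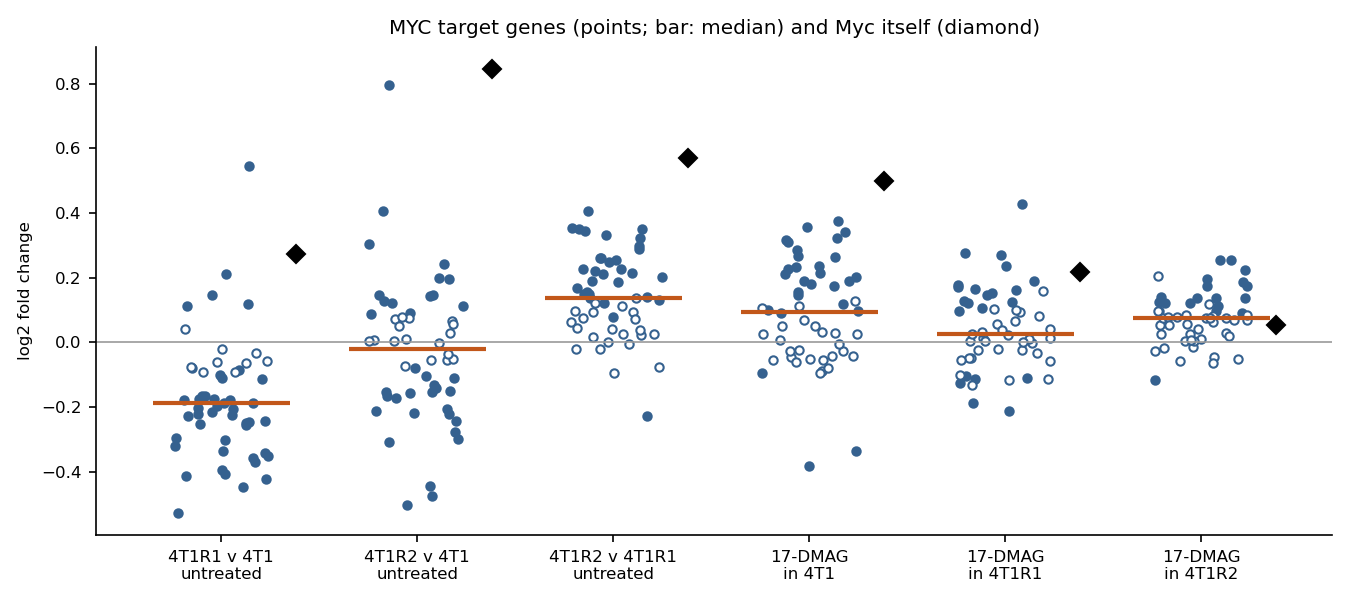
Log2 fold changes of the 54 MYC target genes (points, filled where the adjusted p was under 0.05) with their median (bar) and of Myc (diamond) in 6 comparisons. Myc is at 0.05 and did not pass after 17-DMAG in 4T1R2, and is higher in the other 5 comparisons, at 0.27 where the median of the list is -0.19 and at 0.84 where it is -0.02.

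Ccnd1 (chr7:144929931-144939925, minus strand), cyclin D1, had the highest level per kilobase of exon in every group. Its 3′ end overlaps LTO1 on the opposite strand at chr7:144929931-144931701, and reads there cannot be assigned to either gene with certainty, because the sources used here do not say whether strand was used in counting. Untreated 4T1 held 38311, 37959 and 37807 normalized counts, 4T1R1 held 33814, 33719.8 and 34084, and 4T1R2 held 31403, 30815 and 31763. The 3 populations did not overlap, in the reverse of the order for Myc. Ccnd1 was lower than in 4T1 by a log2 change of -0.17 in 4T1R1 (SE 0.0222, adjusted p = 2.98e-08) and of -0.28 in 4T1R2 (SE 0.0223, adjusted p = 5.00e-14). It was lower in 4T1R2 than in 4T1R1 as well (log2 -0.11, SE 0.0223, adjusted p = 7.34e-05).

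The response of Ccnd1 to the drug had opposite directions. In 4T1 it fell to 34268 and 33255 (log2 change -0.17, SE 0.0249, adjusted p = 3.63e-07). In 4T1R1 it rose to 35326, 35583 and 35548 (log2 change 0.07, SE 0.0222, adjusted p = 0.0200), and in 4T1R2 it rose to 34493, 34490.3 and 33909 (log2 change 0.13, SE 0.0222, adjusted p = 5.41e-05). Treated and untreated samples did not overlap in any population. The responses of 4T1R1 and 4T1R2 exceeded that of 4T1 by 0.24 (log2, SE 0.0333, adjusted p = 7.47e-07) and 0.30 (log2, SE 0.0334, adjusted p = 2.71e-09). The directions were the same under RLE scaling, total counts alone and DESeq2. The rise in 4T1R1, of 1.05-fold, was not called without treated replicate 2 (adjusted p = 0.0533) or treated replicate 3 (adjusted p = 0.0572) of 4T1R1.

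Ccnd2 (chr6:127125162-127152193, minus strand), cyclin D2, rose with the drug in every population. Untreated 4T1 held 10382, 10648 and 10466 normalized counts and treated 4T1 14792 and 15086 (log2 change 0.51, SE 0.0309, adjusted p = 2.75e-17). In 4T1R1 it went from 10030.1, 9876 and 10186 to 11673, 12304 and 12456 (log2 change 0.28, SE 0.0281, adjusted p = 4.23e-10). In 4T1R2 it went from 11639, 11291 and 11099.6 to 13588, 13677 and 13967 (log2 change 0.28, SE 0.0280, adjusted p = 1.12e-09). Groups did not overlap in any population. The rise was smaller than in 4T1 by 0.23 (log2) in 4T1R1 (SE 0.0419, adjusted p = 5.71e-05) and in 4T1R2 (SE 0.0418, adjusted p = 5.00e-05), and total counts alone ended the first of these calls (log2 -0.08, adjusted p = 0.180). Between untreated populations Ccnd2 was higher in 4T1R2 than in 4T1 (log2 0.11, SE 0.0282, adjusted p = 0.000902) and than in 4T1R1 (log2 0.18, SE 0.0282, adjusted p = 2.21e-06). Its difference of -0.07 in 4T1R1 against 4T1 passed narrowly (adjusted p = 0.0481) and was lost in 19 alternatives beside the minimum change, with adjusted p up to 0.302. The libraries that ended it when left out were untreated 4T1R1 replicates 1 and 2, untreated 4T1 replicates 2 and 3, untreated 4T1R2 replicates 2 and 3, treated 4T1R1 replicates 2 and 3, treated 4T1R2 replicates 1 and 2, and treated 4T1 replicate 3, replicate 2, and replicates 1 and 2 together, with adjusted p from 0.0505 to 0.147.

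Ccnd3 (chr17:47505051-47599691, plus strand), cyclin D3, rose by smaller steps, from 1355, 1471 and 1441 to 1627 and 1708 normalized counts in 4T1 (log2 change 0.23, SE 0.0592, adjusted p = 0.00201). In 4T1R1 the untreated samples held 1430.4, 1599.8 and 1442 and the treated ones 1589, 1734 and 1609, which overlapped (log2 change 0.14, SE 0.0534, adjusted p = 0.0422). In 4T1R2 they held 1418, 1392 and 1438 and then 1703, 1500.0 and 1681 (log2 change 0.20, SE 0.0538, adjusted p = 0.0110). These calls were the least firm of the D-type cyclins. In 4T1 the call was lost under total counts alone (log2 0.11, adjusted p = 0.119) and without treated replicate 3 (0.19, adjusted p = 0.0578). In 4T1R2 it was lost without treated replicate 1 (0.17, adjusted p = 0.0922), treated replicate 3 (0.18, adjusted p = 0.0513) or untreated replicate 2 (0.19, adjusted p = 0.0524). In 4T1R1 it was lost under DESeq2 (adjusted p = 0.0524), without untreated replicate 1 (0.11, adjusted p = 0.170) or 3 (0.12, adjusted p = 0.145), without treated replicate 2 (0.10, adjusted p = 0.223) or 3 (0.16, adjusted p = 0.0549), and, at 0.14, without the averaged treated 4T1 sample (adjusted p = 0.0506) or treated 4T1 replicate 3 (adjusted p = 0.0509). The 3 untreated populations did not differ in Ccnd3 beyond their spread, with log2 differences from 4T1 of 0.07 (95% interval -0.04 to 0.18) and -0.01 (-0.12 to 0.10). The responses of 4T1R1 and 4T1R2 differed from that of 4T1 by -0.09 (95% interval -0.25 to 0.08) and -0.03 (-0.19 to 0.13). The 3′ end of Ccnd3 overlaps Bysl on the opposite strand at chr17:47599331-47599691, with the same limit as for Ccnd1. That limit also holds for Ccnd2, which overlaps 9330179D12Rik (at most 53 counts) and Gm43126, and for Cdkn1a, which overlaps AC167363.2, all on the opposite strand. Mxd1 overlaps Gm44292 on the same strand at chr6:86663188-86665551, where strand could not separate them.

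Summed per kilobase of exon, the D-type cyclins reached 12456 ± 47.8 in untreated 4T1 (SD, n = 3) and 12126 ± 134 after the drug (SD, n = 2). In 4T1R1 the sum went from 11302 ± 53.1 to 12135 ± 124 and in 4T1R2 from 10795 ± 136 to 12063 ± 54.7 (SD, n = 3 each). Treated samples of the 3 populations thus lay between 11993 and 12226, a narrower range than the untreated ones, from 10639 to 12484. Ccnd1 made up 81.6% ± 0.387 of this sum in untreated 4T1 and 74.4% ± 0.760 after the drug. In 4T1R1 its share went from 80.1% ± 0.213 to 78.2% ± 0.497 and in 4T1R2 from 77.6% ± 0.393 to 76.0% ± 0.555. Ccnd2 took up most of the difference, at 13.3% ± 0.170 and 19.5% ± 0.485 in 4T1, 14.0% ± 0.175 and 15.8% ± 0.394 in 4T1R1, and 16.6% ± 0.431 and 18.0% ± 0.332 in 4T1R2. The shares of Ccnd1 and Ccnd2 in treated and untreated samples did not overlap within any population, and they are descriptions, since an exact permutation test of 3 against 3 samples cannot go below p = 0.1. The level of the shares depends on the exon lengths used, as given in the closing section.

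**Figure D4:**
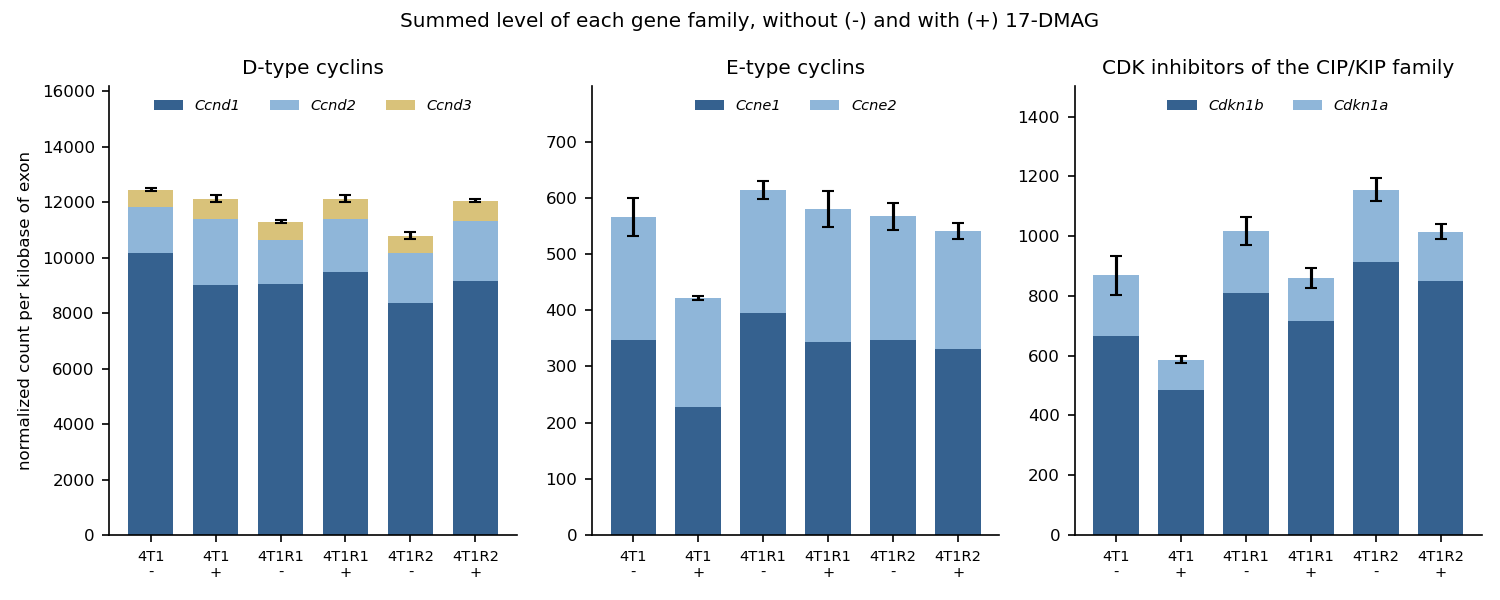
Mean normalized count per kilobase of exon, stacked by gene, for the D-type cyclins, E-type cyclins and the CIP/KIP inhibitors Cdkn1a and Cdkn1b in the 6 groups, with error bars for the SD of the sum. The E-type sum is 422 in treated 4T1 and between 542 and 615 elsewhere, and the CIP/KIP sum is lower after the drug in each population.

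Ccne1 (chr7:38097984-38107534, minus strand), cyclin E1, fell with the drug in 4T1. The untreated samples held 658, 766 and 662 normalized counts and the treated ones 440.2 and 468, without overlap (log2 change -0.62, SE 0.0837, adjusted p = 9.22e-08). In 4T1R1 it went from 793, 777 and 799.5 to 731, 677 and 654 (log2 change -0.20, SE 0.0706, adjusted p = 0.0309), also without overlap. In 4T1R2 the untreated samples held 639, 689 and 760.2 and the treated ones 665, 653 and 673, which lay inside that range (log2 change -0.07, 95% interval -0.21 to 0.08, adjusted p = 0.645). The response of Ccne1 in 4T1R1 was higher than that in 4T1 by 0.42 (log2, SE 0.110, adjusted p = 0.00494) and that in 4T1R2 was higher by 0.55 (log2, SE 0.110, adjusted p = 0.000239). The first was lost without the averaged treated 4T1 sample (log2 0.37, adjusted p = 0.0559). The fall in 4T1R1 was lost under total counts alone (log2 -0.16, adjusted p = 0.0856), without untreated 4T1R1 replicate 1 (-0.20, adjusted p = 0.0678) or 3 (-0.19, adjusted p = 0.0733), and without treated replicate 2 (-0.19, adjusted p = 0.0866) or 3 (-0.16, adjusted p = 0.133).

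Untreated Ccne1 was higher in 4T1R1 than in 4T1 (log2 0.19, SE 0.0705, adjusted p = 0.0253) and lower in 4T1R2 than in 4T1R1 (log2 -0.19, SE 0.0713, adjusted p = 0.0353), while 4T1R2 and 4T1 overlapped (95% interval of the difference -0.15 to 0.15). The first call was lost without untreated 4T1R1 replicate 1 (adjusted p = 0.0556) or 3 (adjusted p = 0.0631) and without untreated 4T1 replicate 1 (adjusted p = 0.118) or 3 (adjusted p = 0.116). The second was lost under DESeq2 (adjusted p = 0.0600), without untreated 4T1R1 replicate 1 (adjusted p = 0.0738) or 3 (adjusted p = 0.0835), and without untreated 4T1R2 replicate 1 (log2 -0.12, adjusted p = 0.238) or 2 (adjusted p = 0.0800).

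Ccne2 (chr4:11191351-11204779, plus strand), cyclin E2, passed in no comparison of the fit. Its untreated means were 700.4 ± 14.7 normalized counts for 4T1, 703 ± 32.9 for 4T1R1 and 702 ± 25.3 for 4T1R2 (SD, each n = 3), and the log2 differences from 4T1 were 0.01 (95% interval -0.13 to 0.14) and 0.00 (-0.13 to 0.14). In 4T1 the treated samples, at 636 and 610.2, lay below the untreated ones, at 684, 711 and 707 (log2 change -0.17, 95% interval -0.32 to -0.02, adjusted p = 0.0765), and this passed under total counts alone (adjusted p = 0.00230) and with 18 separate libraries (adjusted p = 0.0428). The response of 4T1R1 exceeded that of 4T1 by 0.27 (log2, adjusted p = 0.0531) and passed in 6 alternatives, 1 of them the fit without treated 4T1R1 replicate 3 (log2 0.31, adjusted p = 0.0296). Ccne2 overlaps Ints8 on the opposite strand at chr4:11199158-11204779, so part of its count may belong to either gene. Per kilobase, Ccne1 made up 61.3% ± 1.77 of the 2 E-type cyclins in untreated 4T1 (SD, n = 3) and 53.8% ± 1.78 after the drug (SD, n = 2), 64.3% ± 0.774 and 59.3% ± 0.830 in 4T1R1, and 61.2% ± 2.81 and 61.3% ± 1.12 in 4T1R2 (SD, n = 3 each).

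Cdkn1a and Cdkn1b, the CIP/KIP inhibitors among the members, both fell with the drug in 4T1 and 4T1R1, whereas Mxd1 rose in 4T1. The 250 bases before a RefSeq start of each are printed 5′ to 3′ on the gene's strand from RefSeq's GRCm38.p6 annotation, because these members changed in opposite directions. Capitals mark GGGCGG, the GC box, on either strand, which 32.7% of 32851 such windows hold. The windows are chr17:29093519-29093768 for Cdkn1a (plus strand, 2 matches), chr6:134920151-134920400 for Cdkn1b (plus strand, 1 match) and chr6:86669160-86669409 for Mxd1 (minus strand, 6 matches that partly overlap).
Cdkn1a: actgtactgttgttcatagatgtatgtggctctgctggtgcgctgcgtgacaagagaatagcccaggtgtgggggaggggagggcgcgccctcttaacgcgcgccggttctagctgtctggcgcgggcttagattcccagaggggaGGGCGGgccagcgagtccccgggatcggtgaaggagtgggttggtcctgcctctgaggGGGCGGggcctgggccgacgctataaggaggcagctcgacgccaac
Cdkn1b: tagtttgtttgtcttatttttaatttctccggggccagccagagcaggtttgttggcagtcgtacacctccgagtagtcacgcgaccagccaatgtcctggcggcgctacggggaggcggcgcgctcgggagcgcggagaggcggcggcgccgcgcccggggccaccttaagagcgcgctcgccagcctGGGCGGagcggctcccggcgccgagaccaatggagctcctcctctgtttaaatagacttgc
Mxd1: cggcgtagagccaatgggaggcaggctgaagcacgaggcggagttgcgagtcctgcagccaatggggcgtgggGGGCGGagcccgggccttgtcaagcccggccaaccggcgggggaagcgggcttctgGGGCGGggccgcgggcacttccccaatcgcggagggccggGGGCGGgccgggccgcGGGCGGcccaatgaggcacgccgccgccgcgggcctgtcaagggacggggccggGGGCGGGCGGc
The Cdkn1a window before its other RefSeq start, chr17:29090729-29090978, held no GC box. CCAAT, which 33.8% of windows hold on either strand, occurred 2 times in the Cdkn1b window, 4 times in that of Mxd1 and not in that of Cdkn1a. Neither TATAAA (12.4% of windows) nor CACGTG (6.02% of windows), the E box that MYC with MAX binds, occurred in any of the 3. Among members not printed, the window of Ccne1, which fell in 4T1, held 4 GC boxes and no CCAAT. The windows of Ccnd3, which rose there, held 2 and 1 GC boxes, and only the latter held CCAAT. The window of Cdkn2b held no GC box and no CCAAT. Windows of Myc, Ccnd1, Ccnd2 and Ccne2 were not available here and were not examined. A link between these matches and the direction of change was not tested.

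Cdkn1a (chr17:29090976-29100727, plus strand), which encodes p21, showed the largest log2 response of the set in each population. Untreated 4T1 held 405, 463 and 368 normalized counts and treated 4T1 170.2 and 238, a fall to 0.489 of the untreated level (log2 change -1.03, SE 0.122, adjusted p = 4.27e-09). In 4T1R1 it went from 405, 403 and 454 to 284, 308 and 288 (log2 change -0.52, SE 0.103, adjusted p = 0.000133). In 4T1R2 it went from 533, 432 and 522 to 329.9, 344 and 341 (log2 change -0.56, SE 0.0995, adjusted p = 0.000116). Treated samples lay below all untreated ones in each population, and all 3 falls passed in each of the 29 alternatives of scaling, filter, tool, minimum change and left-out library. The response was weaker than in 4T1 by 0.51 (log2, SE 0.160, adjusted p = 0.0208) in 4T1R1 and by 0.48 (log2, SE 0.158, adjusted p = 0.0298) in 4T1R2. Both differences rested on few samples. Without the averaged treated 4T1 sample they were 0.26 (adjusted p = 0.375) and 0.24 (adjusted p = 0.436), and without untreated 4T1 replicate 2 they were 0.42 (adjusted p = 0.0693) and 0.38 (adjusted p = 0.0978). The first was also lost without treated 4T1R1 replicate 2 (0.47, adjusted p = 0.0506), and the second without untreated 4T1R2 replicate 2 (0.39, adjusted p = 0.0926) or treated 4T1R2 replicate 2 (0.46, adjusted p = 0.0529).

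Untreated Cdkn1a was higher in 4T1R2 than in 4T1 (log2 0.27, SE 0.0987, adjusted p = 0.0180), although the samples overlapped, and the call was lost without untreated 4T1 replicate 3 (0.20, adjusted p = 0.133), untreated 4T1R2 replicate 1 (0.22, adjusted p = 0.109) or untreated 4T1R2 replicate 3 (0.24, adjusted p = 0.0735). Against 4T1R1 it was 0.24 higher (log2, SE 0.0980, adjusted p = 0.0486), which was lost in 16 alternatives beside the minimum change, with adjusted p up to 0.220. The libraries that ended it when left out were untreated 4T1R2 replicates 1 and 3, untreated 4T1R1 replicates 1 and 2, all treated replicates of 4T1R1 and 4T1R2, and treated 4T1 replicate 1, with adjusted p from 0.0501 to 0.220. In 4T1R1 against 4T1 Cdkn1a was at 0.03 (log2, 95% interval -0.17 to 0.23).

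Cdkn1b (chr6:134920401-134925513, plus strand), which encodes p27, was higher in both selected populations. Untreated 4T1 held 1718, 1598 and 1469.7 normalized counts, 4T1R1 held 2068, 1851 and 1901, and 4T1R2 held 2175, 2152 and 2222, with no overlap between populations. The log2 differences from 4T1 were 0.28 in 4T1R1 (SE 0.0514, adjusted p = 1.09e-05) and 0.45 in 4T1R2 (SE 0.0516, adjusted p = 7.45e-10), and 4T1R2 exceeded 4T1R1 by 0.17 (SE 0.0506, adjusted p = 0.00639). This is the same order as for Myc. After 17-DMAG Cdkn1b fell to 1183 and 1143 in 4T1 (log2 change -0.45, SE 0.0602, adjusted p = 5.72e-08). In 4T1R1 it fell to 1778, 1603 and 1764 (log2 change -0.18, SE 0.0512, adjusted p = 0.00734), a call lost without untreated replicate 1 (-0.13, adjusted p = 0.0837) or treated replicate 2 (-0.13, adjusted p = 0.0815) of 4T1R1. In 4T1R2 it stood at 2002, 2091 and 2001, below the untreated samples without passing (log2 change -0.10, 95% interval -0.205 to -0.00222, adjusted p = 0.205). The response was weaker than in 4T1 by 0.28 (log2, SE 0.0789, adjusted p = 0.0104) in 4T1R1 and by 0.35 (log2, SE 0.0783, adjusted p = 0.000980) in 4T1R2, and the first was lost without untreated 4T1 replicate 1 (0.22, adjusted p = 0.0520) or treated 4T1 replicate 3 (0.26, adjusted p = 0.0677).

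Per kilobase of exon, the 2 CIP/KIP members summed to 869 ± 65.1 in untreated 4T1 (SD, n = 3) and 586 ± 11.4 after the drug (SD, n = 2). Cdkn1c, another gene of that family, was listed with the other CDK inhibitors and is not in this sum. The sum went from 1017 ± 45.9 to 861 ± 34.4 in 4T1R1 and from 1156 ± 39.1 to 1015 ± 24.0 in 4T1R2 (SD, n = 3 each), and treated and untreated samples did not overlap in any population. Most of it was Cdkn1b, with Cdkn1a at 23.3% ± 1.91 in untreated 4T1 (SD, n = 3) and 17.1% ± 3.66 after the drug (SD, n = 2).

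Cdkn2b (chr4:89306299-89311039, minus strand), which encodes p15, had 0 counts in all 18 libraries. A count of 0 allows up to 3 counts, or 0.0545 to 0.128 CPM by library, for counting error only. Its neighbour Cdkn2a, which encodes p16 and p19ARF, also had 0 counts in all 18 libraries, and Dmrta1 had 0 counts in 16 and at most 2 in the others. Mtap, on the other side of Cdkn2a on chromosome 4, had 10509 to 20645 counts. No comparison can be made for Cdkn2b.

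Of 5 other CDK inhibitor genes, 3 were tested. In 4T1R1, 4T1R2 and 4T1R2 against 4T1R1, 1, 2 and 3 of them passed, with 0, 1 and 2 higher, where 52.7%, 52.4% and 38.8% of all genes passed. After 17-DMAG 2, 1 and 1 passed in 4T1, 4T1R1 and 4T1R2, where 36.4%, 28.2% and 10.5% of all genes did. With 3 genes tested, nothing is read from these counts. Cdkn2c, which encodes the CDK4 and CDK6 inhibitor p18, was among those that fell in each population, by 0.13, 0.18 and 0.11 (log2), and was named after its values were seen. Its call in treated 4T1 (adjusted p = 0.0127) was lost without treated replicate 3 or the averaged treated sample of 4T1. Its call in treated 4T1R2 (adjusted p = 0.0474) was lost without untreated replicate 1 or 2 or treated replicate 2 or 3 of 4T1R2, untreated replicate 1 or treated replicate 3 of 4T1R1, untreated replicate 3 of 4T1, and any treated replicate of 4T1 other than replicate 1 alone. The count of 2 in untreated 4T1R2 became 1 without untreated 4T1R2 replicate 3, and that of 2 in treated 4T1 became 1 without untreated 4T1 replicate 1 or 3 or the averaged treated sample and 0 without treated 4T1 replicate 3.

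Of 20 genes of CDKs, RB proteins and E2F factors, 13 differed between 4T1R1 and 4T1 (5 higher, 8 lower), 9 between 4T1R2 and 4T1 (2 higher, 7 lower) and 12 between 4T1R2 and 4T1R1 (6 higher, 6 lower). Of all genes, 52.7%, 52.4% and 38.8% differed, and the first 2 counts lie near those shares. Cdk6, a kinase partner of the D-type cyclins, separated the selected populations. It held 3388 ± 10.8 normalized counts in untreated 4T1, with 7727 ± 84.7 for 4T1R1 and 2611 ± 104 for 4T1R2 (SD, each n = 3), a log2 change of 1.19 in 4T1R1 (SE 0.0330, adjusted p = 3.89e-29) and of -0.38 in 4T1R2 (SE 0.0351, adjusted p = 4.47e-12). Its log2 change after the drug was -0.01 in both 4T1 and 4T1R1 and -0.03 with 4T1R2 cells, and none passed. After 17-DMAG, 3 of the 20 rose and 7 fell in 4T1, 5 and 5 in 4T1R1, and 0 and 4 in 4T1R2, against 36.4%, 28.2% and 10.5% of all genes called. Under total counts alone 2 rose and 14 fell in 4T1 and 7 rose and 1 fell in 4T1R1. E2f2, an activating E2F factor, fell from 504 ± 19.1 (SD, n = 3) to 212 ± 12.9 (SD, n = 2) in 4T1 (log2 change -1.24, SE 0.114, adjusted p = 5.30e-12). It fell by 0.31 in 4T1R1 (adjusted p = 0.00765) and by 0.30 in 4T1R2 (adjusted p = 0.0264). Cdk2, the partner of the E-type cyclins, and E2f1, both named after their values were seen, also fell in 4T1 (log2 -0.47, adjusted p = 5.91e-09, and log2 -0.33, adjusted p = 1.46e-05). The count of 10 in 4T1R1 became 4 without treated 4T1R1 replicate 3, 5 without treated replicate 2 and 6 without treated replicate 1 or untreated replicate 1 or 2 of 4T1R1. The count of 4 in 4T1R2 became 0 without treated 4T1R2 replicate 2 and 2 without untreated 4T1R2 replicate 2.

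Of 16 other cyclins, 15 were tested, and 3 were higher and 7 lower in each selected population than in 4T1. Of all genes, 25.2% were higher and 27.5% lower in 4T1R1, and 25.6% and 26.9% in 4T1R2. In 4T1R1 the 3 became 0 without untreated 4T1R1 replicate 3. Ccna2 and Ccnb1, the cyclins of S phase and of mitosis, were lower in 4T1R1 (log2 -0.53, adjusted p = 4.70e-19, and -0.36, adjusted p = 2.80e-11) and in 4T1R2 (log2 -0.28, adjusted p = 7.48e-11, and -0.11, adjusted p = 0.00655). After 17-DMAG 2 rose and 3 fell in 4T1, 5 and 2 in 4T1R1, and 2 and 3 in 4T1R2, where 36.4%, 28.2% and 10.5% of all genes were called. Ccng2, a cyclin linked to cell cycle arrest, fell in all 3 (log2 -0.80, -0.32 and -0.41, adjusted p = 8.81e-09, 0.00253 and 0.000209), as Cdkn1a did. These 3 cyclins were named after their values were seen. The count of 5 in treated 4T1 became 3 without treated 4T1 replicate 3, and the count of 5 in treated 4T1R2 became 3 without untreated 4T1R2 replicate 3.

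Cdkn1a is a target of the tumour suppressor p53. The state of p53 in these cells was not examined, so its targets are no measure here of its activity. Besides Cdkn1a, 19 other targets of p53 were listed, of which 16 were tested. In untreated cells 8 were higher and 3 lower in 4T1R1, and 10 were higher and 3 lower in 4T1R2, than in 4T1, with medians of 0.20 and 0.19 against 0.01 over all genes in both. The shares of all genes higher and lower were 25.2% and 27.5% in 4T1R1 and 25.6% and 26.9% in 4T1R2. Fas, a death receptor gene, went from 43.7 ± 11.3 normalized counts in 4T1 to 497 ± 61.8 for 4T1R1 and 353 ± 34.7 for 4T1R2 (SD, each n = 3; log2 3.50, adjusted p = 1.49e-21, and log2 3.00, adjusted p = 9.50e-19). Plk2, a stress-induced kinase gene, rose by 1.18 (adjusted p = 4.11e-27) and 1.16 (adjusted p = 1.00e-26) on the log2 scale. Trp53inp1 rose by 1.16 (adjusted p = 2.70e-08) and 1.78 (adjusted p = 2.23e-13). Sesn2, a stress-induced inhibitor of growth signalling, rose by 1.25 (adjusted p = 2.61e-12) and 0.86 (adjusted p = 8.21e-08), and it was the largest riser of the list after 17-DMAG in 4T1, from 160.0 ± 25.1 (SD, n = 3) to 506 ± 65.7 (SD, n = 2; log2 1.66, adjusted p = 8.05e-15). There Fas fell (log2 -1.50, adjusted p = 0.000280) as Cdkn1a did, and 4 of the 16 rose and 4 fell. In treated 4T1R1 1 rose and 3 fell, and in treated 4T1R2 1 rose and 2 fell. In the 3 treated populations 36.4%, 28.2% and 10.5% of all genes were called. The 8 calls in treated 4T1 became 4 without treated 4T1 replicate 3, and the 4 falls became 1.

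Other genes shared the members' patterns over the 17 samples, by Pearson's r over log2 levels, compared among the 10330 genes whose mean normalized count reached 100. The 3 nearest to Myc were Mycbp2 (r = 0.963), Wdr18 (r = 0.962) and Esd (r = 0.958). The nearest to Ccnd2 was Cct5 (r = 0.979), a subunit of the chaperonin that folds actin and tubulin, to Cdkn1b Skil (r = 0.971), to Ccne1 Cttnbp2nl (r = 0.965) and to Cdkn1a Erf (r = 0.934). For Ccnd1, Mxd1, Ccnd3 and Ccne2 the nearest were Wwp1 (r = 0.896), Hdac11 (r = 0.881), Fut10 (r = 0.856) and Osgepl1 (r = 0.840). The points are samples of 6 groups, so these values mostly describe differences between groups.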

How the data were processed

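RNA of 3 populations, untreated or exposed to 17-DMAG, had been depleted of ribosomal RNA and sequenced as stranded libraries, 3 per group. The counts of reads per gene were deposited by the authors, who aligned reads with STAR to mm10 and counted them with featureCounts of Subread 1.6.2, after demultiplexing with bcl2fastq 2.20. Whether strand was used in counting is not given in the sources used here. Between 65.6% and 70.8% of counts from 1 to 12 were even, as when both reads of a pair are counted, and the ribosomal gene Rn45s took 9.54% to 15.6% of a library.

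The counts were filtered with filterByExpr, scaled by TMM and tested with the quasi-likelihood test of edgeR 4.0.16 (R 4.3.3, limma 3.58.1) with 1 term per group over 17 samples, 2 libraries being averaged as described above. P-values were adjusted by Benjamini-Hochberg over the 13507 genes tested, with 0.05 as threshold, and they measure only the spread between these samples. SE was the log2 change divided by the square root of F, and intervals are 95%. Differences in response are interaction terms. Comparisons that share a group share its samples. Levels per kilobase used exons of transcripts that GENCODE vM21 pairs with a RefSeq mRNA. Of 24421 symbols, 23334 were found in GENCODE, and Python 3.11.15, pandas 2.3.3 and matplotlib 3.10.9 served for summaries and plots.

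Members and lists were chosen with earlier results of these data known. Ccng1 is on the list of other cyclins and on that of p53 targets. Cdk4 is on the list of MYC targets and on that of CDK, RB and E2F genes. By rule, at most 4 genes of each list were to be named, with an adjusted p under 0.05, a change of 1 (log2) or more and a mean normalized count no lower than 100 in whichever group was higher. It named 7, and the report says where others were named after their values were seen. For likeness, the 3 highest r for Myc and the highest for each other member were named. Alternatives were RLE scaling, total counts alone, no filter, at least 10 counts in every library, DESeq2 1.42.0, only the groups compared, 18 separate libraries with and without the replicate number as a block, Rn45s left out, a minimum change of 0.5 (log2) and each library left out. Leaving out 1 of the averaged libraries without averaging, and the union of all GENCODE exons as length, were added after the data were seen. The scripts were tested on simulated data.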

Additional observations from a re-analysis of the deposited data

Results flagged for a closer look

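The following differences in response to 17-DMAG between a selected population and 4T1 passed the interaction test of edgeR with Benjamini-Hochberg adjustment, and no cause was tested. On the log2 scale, the response of Myc differed from that of 4T1 by -0.28 in 4T1R1 and -0.44 in 4T1R2, that of Ccnd2 by -0.23 in both and that of Mxd1 by -0.69 and -0.71. The response of Ccnd1 differed by 0.24 and 0.30, that of Ccne1 by 0.42 and 0.55, that of Cdkn1a by 0.51 and 0.48 and that of Cdkn1b by 0.28 and 0.35, in 4T1R1 and 4T1R2. Both populations are set against the same 4T1 samples, of which the treated group had n = 2. Groups held at most 3 samples, so no test for a sample far from its group was made.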

How the results depend on the processing

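Over 29 alternatives and 2347 values of single members, 0 called values changed sign and 55 uncalled ones did. The minimum change of 0.5 (log2) ended 38 calls, the other alternatives ended 84 and added 23, and 2202 values kept their call, with those 55 among them. Total counts alone shifted log2 changes of the listed genes by -0.116 after 17-DMAG in 4T1 and by 0.150 in the response of 4T1R1 minus 4T1, against at most 0.0801 elsewhere, and moved the share of higher among all called genes from 50.7% to 21.6% in treated 4T1, 49.2% to 64.2% in treated 4T1R1 and 58.7% to 24.2% in treated 4T1R2. In the responses it moved from 50.2% to 89.4% (4T1R1 minus 4T1), 54.1% to 76.8% (4T1R2 minus 4T1) and 56.9% to 9.08% (4T1R2 minus 4T1R1). The cause was not tested.

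With the minimum of 0.5 (log2), members called were 0, 1 and 1 in 4T1R1 and 4T1R2 against 4T1 and 4T1R2 against 4T1R1, 4, 1 and 1 after 17-DMAG in 4T1, 4T1R1 and 4T1R2, and 2 and 2 for the responses of 4T1R1 and 4T1R2 against 4T1. In those first 6 comparisons, in that order, it left 1, 2, 0, 1, 0 and 0 genes of the MYC network, 2, 1, 1, 1, 0 and 0 of the CDK, RB and E2F genes, 1, 2, 1, 1, 0 and 0 of the other cyclins, 2, 2, 0, 0, 0 and 0 of the MYC targets and 5, 5, 1, 3, 1 and 0 of the p53 targets, and 0 other CDK inhibitors in 4T1R2 against 4T1, 4T1R2 against 4T1R1 and the 3 treated populations.

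The count of members whose response differed between 4T1R2 and 4T1R1 became 1 with total counts alone, no filter, DESeq2 and the replicate block. Genes of the MYC network called in treated 4T1 became 5 with total counts alone and with 18 separate libraries, and in treated 4T1R2 they became 2 with RLE scaling, total counts alone, no filter, at least 10 counts, only the groups compared, 18 separate libraries and DESeq2. CDK, RB and E2F genes became 16 with total counts alone in treated 4T1 and 6 with only the groups compared in treated 4T1R1. Other CDK inhibitors in treated 4T1R2 became 0 with no filter and without Rn45s, and MYC targets there became 9 with total counts alone.

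Leaving out 1 library gave 3 to 6 members in 4T1R1 against 4T1, 3 to 7 in treated 4T1R1 and 0 to 1 for the response of 4T1R2 minus 4T1R1. It gave 0 to 3 genes of the MYC network in treated 4T1R2, 4 to 11 and 0 to 5 CDK, RB and E2F genes in treated 4T1R1 and 4T1R2, 3 to 6 other cyclins in both treated 4T1 and 4T1R2, 1 to 2, 0 to 3 and 0 to 1 other CDK inhibitors in 4T1R2 against 4T1, treated 4T1 and treated 4T1R2, 11 to 22 MYC targets in treated 4T1R2 and 4 to 8 p53 targets in treated 4T1. The share of Ccnd1 among D-type cyclins, in untreated and treated 4T1, 4T1R1 and 4T1R2 in turn, was 76.1%, 67.0%, 74.6%, 72.0%, 71.1% and 69.1% of counts not divided by length, and 86.3%, 80.1%, 85.3%, 83.6%, 83.0% and 81.6% with the union of GENCODE exons.

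Samples with the same replicate number had deviations that correlated between -0.13 and 0.36 over 6651 genes, not all over 0.1 in any comparison, so the numbers were not taken as pairs. Fitted to 18 libraries with the replicate block, Mxd1 also passed in 4T1R2 against 4T1 (edgeR adjusted p = 0.0483). Ccne2 passed in treated 4T1 (adjusted p = 0.0451) and in the response of 4T1R1 minus 4T1 (adjusted p = 0.0364). Myc passed in the response of 4T1R2 minus 4T1R1 (adjusted p = 0.0496). Cdkn1a no longer passed in 4T1R2 against 4T1R1 (adjusted p = 0.0553). In these comparisons the members called went from 5 to 6, 8 to 9, 7 to 8, 0 to 1 and 6 to 5. The 18 separate libraries without the block changed the same calls of Mxd1 (edgeR adjusted p = 0.0491) and Ccne2 (adjusted p = 0.0428 and 0.0328). They also ended that of Cdkn1a (adjusted p = 0.05055). Of these changes, only that of Myc was absent without the block.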

Other observations

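Genes within 2 Mb of Myc on chromosome 15 were examined after the values of Myc were seen. Pvt1 (chr15:62037986-62378096), a noncoding RNA gene next to Myc, rose from a mean of 1004 normalized counts in untreated 4T1 to 1975 in 4T1R1 and 3000.2 in 4T1R2 (log2 0.97, SE 0.0571, edgeR adjusted p = 3.97e-18, and log2 1.58, SE 0.0562, adjusted p = 2.38e-25). H2afy3, a gene inside the Pvt1 interval, rose from a mean of 97.4 normalized counts in untreated 4T1 to 223 in 4T1R1 and 321 in 4T1R2 (edgeR adjusted p = 1.03e-07 and 7.39e-12). Fam84b, on the other side of Myc, rose by 0.31 and 0.28 (log2, edgeR adjusted p = 4.57e-06 and 2.96e-05). Fam49b, farther out, fell by 0.53 and 0.94 (log2, edgeR adjusted p = 5.63e-16 and 1.06e-23). The other neighbours tested, 9930014A18Rik, Gsdmc4 and Gsdmcl-ps, did not pass (edgeR adjusted p from 0.280 to 0.952). Fam84b did not differ between 4T1R2 and 4T1R1 (log2 -0.03, edgeR adjusted p = 0.701). In that comparison Pvt1 and H2afy3 were higher in 4T1R2 (log2 0.60 and 0.53, edgeR adjusted p = 1.94e-12 and 0.00319). Fam49b was lower there (log2 -0.41, edgeR adjusted p = 1.03e-11), and 9930014A18Rik, Gsdmc4 and Gsdmcl-ps did not pass (adjusted p from 0.109 to 0.628). Of all genes, 52.7% were called in 4T1R1 against 4T1, 52.4% in 4T1R2 against 4T1 and 38.8% in 4T1R2 against 4T1R1. DNA copy number was not analysed here.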
